A study of Arabidopsis thaliana with 18 samples.

Results

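AT4G10270 and AT4G33560 are 2 genes of Arabidopsis thaliana that are annotated as wound-responsive family proteins and belong to the core set of genes induced by low oxygen. Each was represented on the ATH1 expression array by 1 probe set that is listed for that gene alone, and these 2 genes are described here out of 13333 loci with such a probe set. Both lie on chromosome 4 and are not neighbours. AT4G10270 sits next to AT4G10265, a related gene that is not analysed here, and cross-hybridisation between these neighbours was not tested.

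The study measured transcripts of the wild type (Col-0) and of N-end rule pathway mutants on 18 arrays in 8 groups. For seeds, 3 arrays of Col-0 and 3 of prt6-1 were made from whole after-ripened seeds kept at 4 °C for 48 h and then held in constant light on agar for 24 h. For seedlings, Col-0, prt6-1 and the double mutant ate1 ate2 were each represented by 2 arrays in air and 2 under hypoxia. These were whole seedlings grown for 7 days on medium with sucrose after 3 days of cold storage, then kept for 2 h in dim light either in open chambers (air) or in sealed chambers flushed with argon (hypoxia). The series' design text calls the replicates independent biological experiments. No ate1 ate2 seeds are among the samples.

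The N-end rule pathway destroys proteins according to their N-terminal residue. Its arginine branch acts in plants as an oxygen sensor through group VII ethylene response factors, which carry a cysteine near their N-terminus. When oxygen is present this cysteine is oxidised, is then arginylated by the transferases ATE1 and ATE2, and is recognised by the ubiquitin ligase PRT6. When oxygen is short, or when PRT6 or both transferases are lost, the factors remain and switch on hypoxia genes. The wound-responsive family consists of small plant proteins named after transcripts induced by wounding, and the biochemical role of AT4G10270 and AT4G33560 is not well known.

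Array medians lay between 6.70 and 6.88 log2 units, and the highest value of any probe set on an array was between 14.35 and 14.66, above every value of either gene. Arrays of a seedling group correlated with each other at 0.995 to 0.997 across probe sets. The first Col-0 seed array stood apart from its group, with a mean correlation of 0.986 against 0.990 to 0.994 for the other seed arrays, so seed results are also given without it. Tissue labels were checked against listed oil body and storage transcripts, of which 4 had a single-gene probe set, and against the 1 listed photosynthesis transcript that had one. OLEO3, an oleosin gene, had group means of 8.55 and 8.30 in seeds and of 4.33 to 4.60 in seedlings. All 4 had higher means in both seed groups than in any seedling group, but AT2G25890 varied widely, between 6.49 and 8.84 on the seed arrays and between 3.89 and 6.49 on the seedling arrays. LHCB4.1, a gene of a light-harvesting protein, was at 9.33 to 9.92 in seeds and 13.47 to 13.81 in seedlings. The levels of PRT6, ATE1 and ATE2 are not analysed here. Because whole seeds and seedlings were used, a change in the number of cells that express a gene cannot be told apart from a change in RNA per cell.

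In wild-type seedlings in air AT4G10270 was at its lowest level of all groups, with 7.33 and 7.24 on the 2 arrays (log2 RMA values). In prt6-1 in air it was at 10.06 and 10.13, and in ate1 ate2 in air at 10.29 and 10.31. Under hypoxia it reached 11.69 and 11.61 in Col-0, 12.02 and 11.89 in prt6-1, and 11.68 and 11.72 in ate1 ate2. All hypoxic arrays were thus above all arrays in air, and the wild type in air stood far below every other group. In seeds it was already high in Col-0, at 10.89, 10.63 and 10.57, and higher again in prt6-1, at 11.56, 11.58 and 11.64.

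AT4G33560 was likewise lowest in wild-type seedlings in air, at 6.83 and 6.89. It was at 9.70 and 9.76 in prt6-1 and at 9.96 and 10.21 in ate1 ate2 in air. Under hypoxia the values were 10.47 and 10.31 in Col-0, 11.09 and 11.04 in prt6-1, and 11.00 and 11.18 in ate1 ate2. Here the hypoxic arrays of both mutants lay above those of the wild type without overlap. In contrast to AT4G10270, AT4G33560 was low in Col-0 seeds, at 7.23, 7.65 and 7.53, whereas prt6-1 seeds gave 11.06, 11.08 and 10.99.

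**Figure D1:**
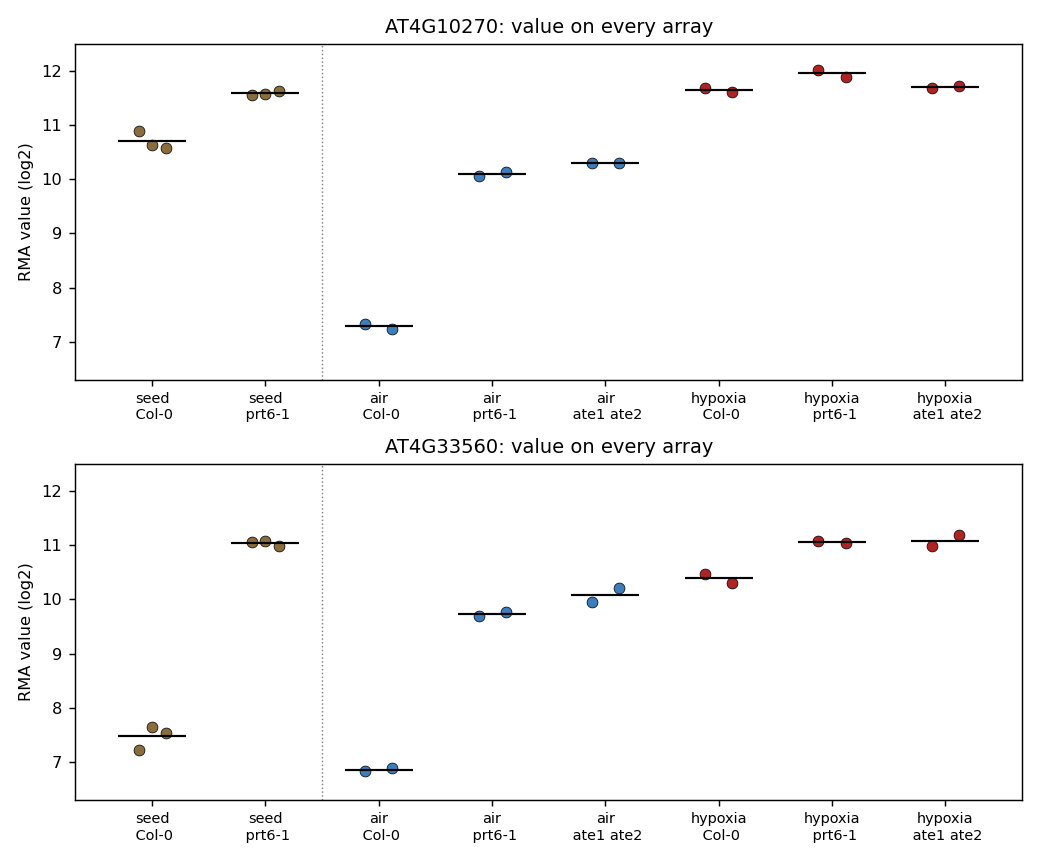
RMA value (log2, vertical axis) of AT4G10270 (top) and AT4G33560 (bottom) on each of the 18 arrays, by group; points are arrays, horizontal lines group means, and the dotted line separates the seed from the seedling experiment. Both genes were lowest in Col-0 seedlings in air, at means of 7.28 and 6.86, while in Col-0 seeds AT4G10270 was at 10.70 and AT4G33560 at 7.47.

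Ordered by group mean, AT4G10270 rose from Col-0 in air (7.28 ± 0.07, SD, n = 2) through prt6-1 in air (10.10 ± 0.05), ate1 ate2 in air (10.30 ± 0.01), Col-0 seeds (10.70 ± 0.17, n = 3), prt6-1 seeds (11.59 ± 0.04, n = 3), and hypoxic Col-0 (11.65 ± 0.06) to hypoxic ate1 ate2 (11.70 ± 0.03) and hypoxic prt6-1 (11.96 ± 0.09). The arrays of prt6-1 seeds and hypoxic Col-0 overlapped, as did those of hypoxic Col-0 and hypoxic ate1 ate2, and all other neighbours in this order were apart. For AT4G33560 the order was Col-0 in air (6.86 ± 0.04), Col-0 seeds (7.47 ± 0.22, n = 3), prt6-1 in air (9.73 ± 0.04), ate1 ate2 in air (10.08 ± 0.17), hypoxic Col-0 (10.39 ± 0.11), prt6-1 seeds (11.04 ± 0.05, n = 3), hypoxic prt6-1 (11.06 ± 0.04) and hypoxic ate1 ate2 (11.09 ± 0.13). The last 3 of these groups overlapped from neighbour to neighbour. The group means spanned 4.67 log2 units for AT4G10270 and 4.23 for AT4G33560. Seeds and seedlings were separate experiments, and it is not stated whether their arrays were normalized together, so positions of seed groups among seedling groups are a description only.

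The first comparison asked how hypoxia changed both transcripts in the wild type. AT4G10270 rose 20.6-fold and AT4G33560 11.6-fold. The log2 fold changes were 4.37 (SE 0.10, limma adjusted p = 8.48e-13) and 3.53 (SE 0.11, limma adjusted p = 2.83e-11), and for both genes the hypoxic arrays did not overlap those in air. These were the 8th and 18th largest rises among all probe sets tested, of which 1.64% were called higher at an adjusted p under 0.05.

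Both genes also rose under hypoxia in the mutants, from a higher starting level. In prt6-1 AT4G10270 rose 3.63-fold (log2 fold change 1.86, SE 0.10, limma adjusted p = 3.94e-08) and AT4G33560 2.52-fold (1.33, SE 0.11, limma adjusted p = 5.38e-06), where 1.75% of probe sets were called higher. In ate1 ate2 the rises were 2.65-fold for AT4G10270 (1.40, SE 0.10, limma adjusted p = 1.63e-06) and 2.01-fold for AT4G33560 (1.01, SE 0.11, limma adjusted p = 0.000141), where 1.61% were called higher. Neither gene had overlapping air and hypoxia arrays in either mutant.

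The difference between these responses was tested as an interaction. The hypoxia response of AT4G10270 was smaller than in Col-0 in both mutants, with an interaction (mutant minus Col-0) of -2.50 log2 units in prt6-1 (SE 0.14, limma adjusted p = 1.6e-07) and -2.96 in ate1 ate2 (SE 0.14, limma adjusted p = 1.92e-08). AT4G33560 had interactions of -2.20 (SE 0.16, limma adjusted p = 2.28e-06) and -2.53 (SE 0.16, limma adjusted p = 3.89e-07). All 4 are calls, against 0.167% of probe sets called lower for prt6-1 and 0.295% for ate1 ate2. Both interactions of a gene use the same Col-0 arrays, so they are not independent of each other. Between the mutants the responses differed by -0.46 for AT4G10270 (95% interval -0.76 to -0.16, limma adjusted p = 0.763) and by -0.32 for AT4G33560 (-0.67 to 0.02, limma adjusted p = 0.818), ate1 ate2 minus prt6-1. Neither passed the threshold in that comparison, in which 0.0044% of probe sets were called in either direction (limma, with 1389 at an unadjusted p under 0.05).

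The next question was how loss of the pathway changed both transcripts without hypoxia. In air AT4G10270 was 7.02-fold higher in prt6-1 than in Col-0 (log2 fold change 2.81, SE 0.10, limma adjusted p = 1.03e-10) and 8.09-fold higher in ate1 ate2 (3.02, SE 0.10, limma adjusted p = 3.62e-11). AT4G33560 was 7.33-fold higher in prt6-1 (2.87, SE 0.11, limma adjusted p = 3.46e-10) and 9.36-fold higher in ate1 ate2 (3.23, SE 0.11, limma adjusted p = 7.7e-11). Of all probe sets, 2.18% were called higher and 1.97% lower in prt6-1, and 2.09% higher and 1.62% lower in ate1 ate2. The mutants share the Col-0 arrays in these comparisons. Of the 4 measured seed storage and oil body markers 0 were higher and 1 was lower in each mutant: AT2G25890, an oleosin family gene, had log2 fold changes of -1.62 in prt6-1 (limma adjusted p = 0.000127) and -1.38 in ate1 ate2 (limma adjusted p = 0.000569). Under hypoxia its values against Col-0 were -2.12 (limma adjusted p = 1.33e-05) and -1.94 (limma adjusted p = 3.46e-05), and AT3G01570, also an oleosin family gene, was lower in prt6-1 (-0.52, limma adjusted p = 0.0402). The part of these markers in the changes of AT4G10270 and AT4G33560 was not tested. Between hypoxia and air 0 of the 4 were called by limma in any genotype, and 0 had an unadjusted p under 0.05. Of all 22746 probe sets 478 were called in Col-0, 927 in prt6-1 and 665 in ate1 ate2. An unadjusted p under 0.05 was found for 2387, 3508 and 3474.

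In air neither mutant reached the level of the hypoxic wild type for AT4G10270. The log2 difference from hypoxic Col-0 was -1.55 in prt6-1 (SE 0.10, limma adjusted p = 2.41e-07) and -1.35 in ate1 ate2 (SE 0.10, limma adjusted p = 1.38e-06). For AT4G33560 the gap was smaller, at -0.66 in prt6-1 (SE 0.11, limma adjusted p = 0.00234) and -0.31 in ate1 ate2 (95% interval -0.55 to -0.06, limma adjusted p = 0.137), and the latter was not called. In these comparisons, which were chosen after the values had been seen, 3.86% of probe sets were called lower in prt6-1 and 4% in ate1 ate2.

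The mutants were also compared with Col-0 under hypoxia. AT4G33560 was 1.60-fold higher in prt6-1 than in Col-0 (log2 fold change 0.67, SE 0.11, limma adjusted p = 0.00307) and 1.63-fold higher in ate1 ate2 (0.70, SE 0.11, limma adjusted p = 0.00275). AT4G10270 had values of 0.31 in prt6-1 (95% interval 0.10 to 0.52, limma adjusted p = 0.0953) and 0.05 in ate1 ate2 (-0.16 to 0.27, limma adjusted p = 0.893), neither of which was called, although its 2 hypoxic prt6-1 arrays lay above the Col-0 arrays and the prt6-1 value was called with an intensity trend (limma adjusted p = 0.0367). The difference between the genes in these comparisons was not tested. Of all probe sets, 1.55% were called higher and 3.64% lower in prt6-1, and 1.11% higher and 1.51% lower in ate1 ate2. The calls of AT4G33560 were lost when some single arrays were left out, which leaves a group with a single array. Without the second hypoxic Col-0 array the values were 0.59 in prt6-1 and 0.62 in ate1 ate2. Without the second hypoxic ate1 ate2 array the value for that mutant was 0.61.

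The mutants were compared with each other directly as well. In air ate1 ate2 minus prt6-1 was 0.20 for AT4G10270 (95% interval -0.01 to 0.42, limma adjusted p = 0.641) and 0.35 for AT4G33560 (0.11 to 0.59, limma adjusted p = 0.396). Under hypoxia these differences were -0.25 (-0.46 to -0.04, limma adjusted p = 0.478) and 0.03 (-0.22 to 0.27, limma adjusted p = 0.98). None of the 4 was called by limma, where 0.127% of probe sets were called in either direction in air and 0.163% under hypoxia, with 1815 and 1922 probe sets at an unadjusted p under 0.05.

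**Figure D2:**
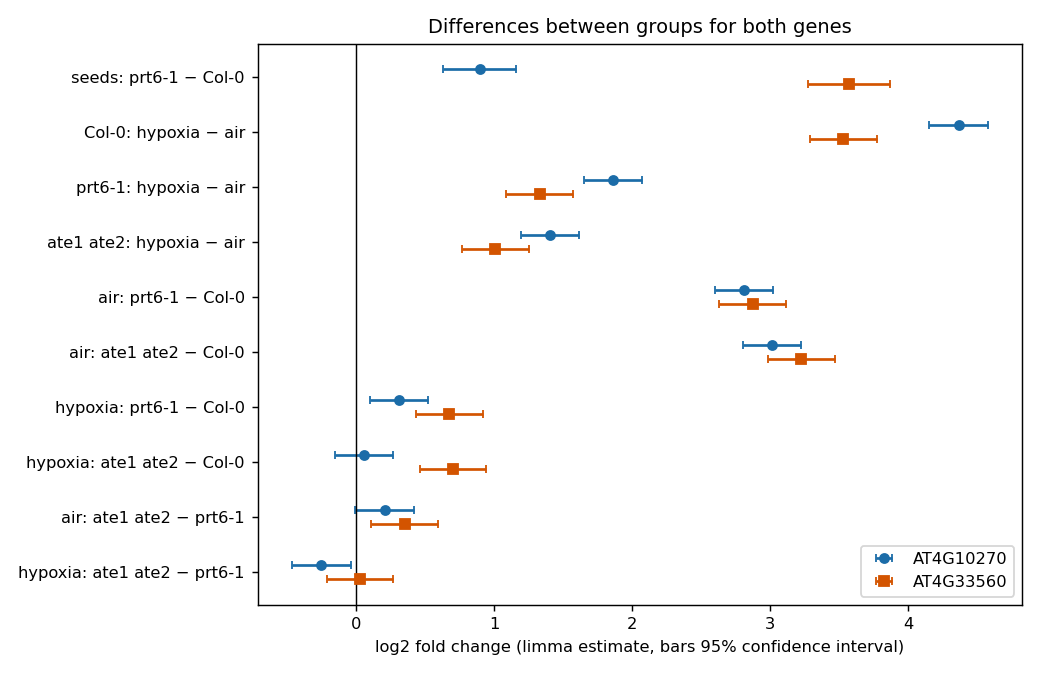
Log2 fold changes (horizontal axis) of AT4G10270 (blue circles) and AT4G33560 (orange squares) in 10 comparisons, as limma estimates with 95% confidence intervals; the vertical line marks no difference. The rise under hypoxia shrank from 4.37 and 3.53 in Col-0 to 1.40 and 1.01 in ate1 ate2, and in seeds the effect of prt6-1 was 0.89 for AT4G10270 and 3.57 for AT4G33560.

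In seeds the effect of prt6-1 differed most between the genes. AT4G33560 was 11.9-fold higher in prt6-1 than in Col-0 seeds (log2 fold change 3.57, SE 0.13, limma adjusted p = 6.82e-06), which was the 6th largest rise of all probe sets. AT4G10270 was 1.86-fold higher (0.89, SE 0.12, limma adjusted p = 0.00519), the 182nd largest. Both were calls, against 2.19% of probe sets called higher, and in both genes the 3 prt6-1 arrays lay above the 3 Col-0 arrays. Without the first Col-0 seed array, which stood apart, the values were 3.45 for AT4G33560 (limma adjusted p = 8.76e-06) and 0.99 for AT4G10270 (limma adjusted p = 0.00169).

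Whether the effect of prt6-1 in seeds equalled that in seedlings in air was tested as an interaction over all 18 arrays, a test added after the values had been seen. For AT4G10270 the effect in seeds was smaller (interaction, seeds minus seedlings, -1.92 log2 units, SE 0.14, limma adjusted p = 7.95e-07). For AT4G33560 it was larger by 0.70 (SE 0.17, limma adjusted p = 0.0248). Of all probe sets, 3.06% were called lower and 2.55% higher. The call of AT4G33560 was lost with only the 4 groups compared (0.70, limma adjusted p = 0.0731) or without any 1 of the Col-0 or prt6-1 air arrays (0.67 to 0.73, limma adjusted p = 0.0761 to 0.0935). Set side by side, Col-0 seeds minus Col-0 seedlings in air was 3.42 log2 units for AT4G10270 and 0.61 for AT4G33560, with a median of 0.14 over all probe sets. Tissue, growth conditions and experiment cannot be told apart in that difference or in the interactions.

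The genes' responses were compared with each other on the same arrays. Averaged over the 3 genotypes, the rise under hypoxia was larger for AT4G10270 than for AT4G33560 by 0.59 log2 units (exact permutation test within genotype, two-sided p = 0.00926, the smallest p this design can give). The difference was 0.83 in Col-0, 0.53 in prt6-1 and 0.40 in ate1 ate2, in the same direction in all 3. In seeds the effect of prt6-1 on AT4G10270 was smaller than on AT4G33560 (difference -2.68 log2 units, exact permutation test, two-sided p = 0.1, the smallest that 3 arrays against 3 can give), a test added after the values had been seen. Probe sets can differ in how far they compress a change, and the part of this in either difference was not tested.

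Other genes of the low-oxygen response were taken from a list of 51 core hypoxia genes, of which 29 had a single-gene probe set, both genes included. In hypoxic Col-0 seedlings 26 of the 29 rose and none fell, with a median log2 fold change of 2.50 (-0.01 over all probe sets). AT4G10270 ranked 5th and AT4G33560 11th among the 29. The top of the list was AT5G10040 at 5.88 (SE 0.16), CML38, a calmodulin-like protein gene, at 5.15 (SE 0.14), AT3G10040, a trihelix factor gene known as HRA1 that restrains group VII factors, at 4.98 (SE 0.13), and AT1G33055 at 4.89 (SE 0.18). In prt6-1 22 rose (median 1.17) and in ate1 ate2 21 (median 0.91), with none lower in either. Over all probe sets 1.64% were called higher in Col-0, 1.75% in prt6-1 and 1.61% in ate1 ate2. Higher ones made up 78.2% of the 478 calls in Col-0, 43% of the 927 in prt6-1 and 55.2% of the 665 in ate1 ate2. As these calls in either direction were few among the 22746 probe sets, none lower among 29 was not read as a trait of the list. In air 21 of 29 were higher and 1 lower in prt6-1 (median 1.71), and 22 higher and 1 lower in ate1 ate2 (median 2.04). Over all probe sets in air 2.18% were called higher and 1.97% lower in prt6-1, and 2.09% and 1.62% in ate1 ate2. AT4G10270 was 12th of the 29 in both mutants, and AT4G33560 was 10th and 11th.

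Over all probe sets under hypoxia 1.55% were called higher and 3.64% lower in prt6-1 than in Col-0, and 1.11% and 1.51% in ate1 ate2. Of the 29 core genes 12 were higher and 1 lower in prt6-1 (median 0.29), and 9 higher and 2 lower in ate1 ate2 (median 0.15). The 9 were 5 without the second hypoxic Col-0 array or without the second hypoxic ate1 ate2 array, and the 12 were 8 without the first hypoxic Col-0 array. In that comparison AT4G33560 ranked 10th and 7th, and AT4G10270 14th and 19th. The hypoxia response was smaller than in Col-0 for 16 of the 29 in prt6-1 (median interaction -1.33) and for 19 in ate1 ate2 (median -1.59), and larger for none. Over all probe sets 0.167% were called smaller in prt6-1 and 0.295% in ate1 ate2. Larger responses made up 0% of the 38 calls in prt6-1 and 4.29% of the 70 in ate1 ate2. Their absence among the 29 is therefore not particular to this list. AT4G10270 had the 4th most negative interaction of the 29 in ate1 ate2.

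In seeds 21 of the 29 were higher in prt6-1 and none lower, with a median of 1.17 (-0.02 over all probe sets). Over all probe sets 2.19% were called higher, and these made up 53.4% of the 934 calls. Without the first Col-0 seed array 22 of the 29 were higher and 1 lower. AT4G33560 ranked 5th, after AT4G39675 at 5.84 (SE 0.26), AT5G26200, a mitochondrial carrier gene, at 4.22 (SE 0.16), CML38 at 3.75 (SE 0.12) and AT2G17850 at 3.58 (SE 0.10). AT4G10270 ranked 20th. By contrast AT4G10270 had the second largest excess of Col-0 seeds over Col-0 seedlings in air among the 29, where AT4G33560 was 19th and the median was 1.26. The list and both genes were chosen with results of these data known.

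**Figure D3:**
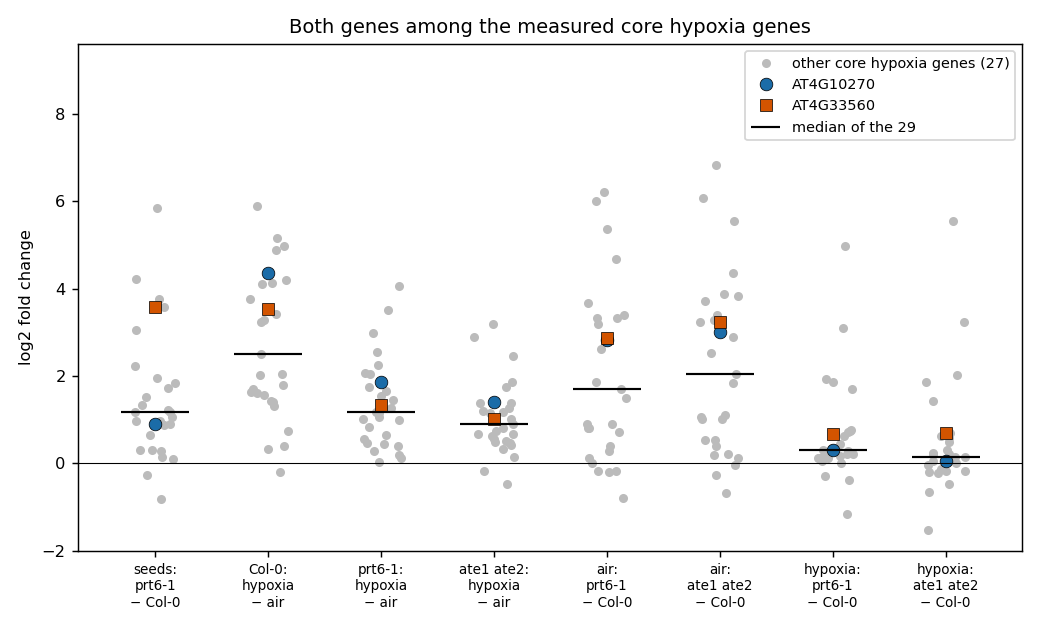
Log2 fold changes (vertical axis) of the 29 measured core hypoxia genes in 8 comparisons; grey points are 27 other genes, the blue circle AT4G10270, the orange square AT4G33560 and the line the median of the 29. Both genes lay above the median in hypoxic Col-0 (2.50), whereas in seeds AT4G33560 was above and AT4G10270 below the median of 1.17.

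The family name refers to wounding, and transcripts of the wound and jasmonate response were therefore examined beside both genes. Of 38 listed genes 4 had a single-gene probe set, namely JMT, which methylates jasmonate, ORA47, a jasmonate-responsive transcription factor gene, and the defence genes THI2.1, a thionin, and PDF1.2, a plant defensin. By limma 0 of the 4 were called in any of the comparisons above, and at most 1 had an unadjusted p under 0.05 in any of them. Of all 22746 probe sets, between 1 and 1527 were called, and between 1389 and 4481 had an unadjusted p under 0.05. Counts of 0 and 1 among 4 genes are near those shares and do not set these genes apart. The median log2 fold change of the 4 was -0.04 in hypoxic Col-0, 0.01 in prt6-1 in air, 0.03 in ate1 ate2 in air and -0.17 in prt6-1 seeds. JMT, THI2.1 and ORA47 stayed between 3.72 and 5.19 on all arrays, and PDF1.2 between 5.81 and 7.10. No gene was listed for 8730 of the 22746 probe sets, so other listed genes may be on the array without a name here. With 4 of 38 genes found by name, and 3 of them dim, the wound response as a whole was not covered.

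The transcripts with the most similar pattern were sought over the 8 group means, among 4908 single-gene probe sets whose means spanned at least 1 log2 unit. Closest to AT4G10270 were AT4G17670 (Pearson r = 0.989), AT3G27220 (0.981), AT4G24110 (0.972), AT5G66985 (0.965) and ARL (0.963), a gene related to the organ size gene ARGOS. The first 4 are in the core hypoxia list and ARL is not. Closest to AT4G33560 were CML38 (r = 0.981), AT4G39720 (0.958), AT1G33055 (0.956), AT2G17850 (0.949) and AT2G47720 (0.948), of which CML38, AT1G33055 and AT2G17850 are in the list. No gene was among the closest 5 of both. With each other AT4G10270 and AT4G33560 had r = 0.814, which made AT4G33560 the 18th most similar to AT4G10270 and AT4G10270 the 24th most similar to AT4G33560.

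These correlations rest on 8 group means from 2 experiments, and share a large step between Col-0 seedlings in air and the other seedling groups. Col-0 seeds were among the 8 groups used to choose both sets, so levels there are a description. AT4G24110 was at a group mean of 9.59 in Col-0 seeds against 5.54 in Col-0 seedlings in air, and AT4G17670 at 8.14 against 6.22. The other genes closest to AT4G10270 were also higher in Col-0 seeds. The set of AT4G33560 was mixed. In it CML38 was at 6.50 against 4.94, AT1G33055 at 8.91 against 6.98 and AT2G17850 at 7.25 against 5.78. AT4G39720 at 5.54 against 5.84 and AT2G47720 at 4.63 against 4.97 were lower in Col-0 seeds than in Col-0 seedlings in air.

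**Figure D4:**
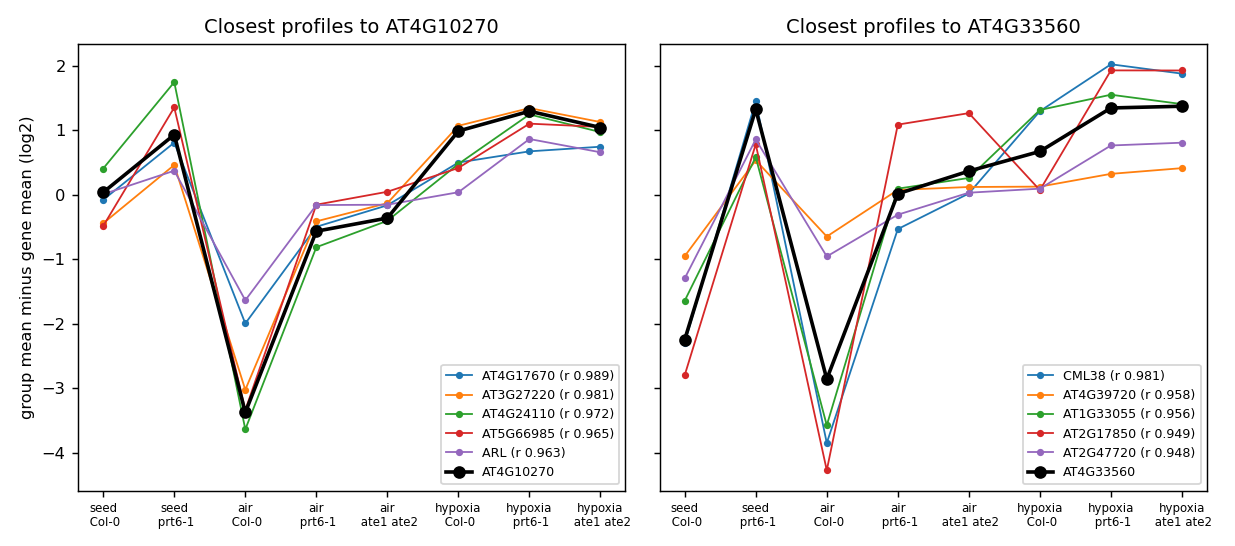
Group mean minus the gene's mean over the 8 groups (log2, vertical axis) for AT4G10270 (left, black) and AT4G33560 (right, black) with the 5 single-gene probe sets most correlated with each (coloured lines, Pearson r over 8 groups in the legend). In Col-0 seeds AT4G10270 lay 0.04 above its mean and its 5 closest genes between -0.48 and 0.41, while AT4G33560 lay at -2.25 and its 5 closest genes between -2.80 and -0.95; Col-0 seeds were among the groups that chose these genes.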

How the data were processed

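Transcripts were measured on ATH1 arrays in 6 seed and 12 seedling samples. The deposited table gives each probe set a log2 value on every array. Per the submitters' processing notes the authors used RMA and affy (versions not given in the sources used here). RMA corrects background, makes array distributions alike and summarises probes, so a shift shared by most transcripts would be lost. Signal over background is unknown. No arrays held identical values.

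After removal of 64 AFFX controls, 22746 of the 22810 probe sets were tested. The platform annotation from GEO, with names brought up to date from the TAIR10.1 gene table, listed 1 gene for 13513 probe sets, several for 503 and none for 8730, and names were used only for the first kind. For a gene with several probe sets the brightest stood. Sequences, promoter motifs and further family members are not analysed here. No coordinates are given, since the array names no build.

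The 6 seed arrays were fitted alone, and the 12 seedling arrays in a model with a mean for each of 6 groups, using lmFit and eBayes (limma 3.58.1, R 4.3.3). P-values are two-sided and Benjamini-Hochberg adjusted over all tested probe sets, and called means an adjusted p under 0.05. Intervals are 95% intervals of the fit, not adjusted for multiple testing. The fit was tested on simulated data. Same-numbered deviations correlated at -0.08 to -0.02 in seeds, where replicate numbers gave no sign of pairing. In seedlings they correlated at -0.23 to 0.26, above 0.1 for 7 of 15 pairs, so whether numbers pair the seedlings was not settled. No block was used in the main fit. Named are both genes, the 5 most correlated genes of each, and from each list at most 4 called genes that changed most. OLEO3, LHCB4.1 and the 4 measured wound and jasmonate genes were named outside this rule, after their values were seen. The members and lists were chosen with earlier results of these data known, and 3 comparisons and 1 test were added after values were seen. Alternatives were quantile renormalization, median centring, a filter removing the dimmest 33.3% of probe sets, an intensity trend, array weights, a joint fit of seeds and seedlings, a fit of the compared groups alone, a replicate block, and leaving out each array in turn.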

Additional observations from a re-analysis of the deposited data

Results flagged for a closer look

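The hypoxia response differed between genotypes by a tested interaction. For AT4G10270 the interaction was -2.50 log2 units in prt6-1 and -2.96 in ate1 ate2 relative to Col-0, and for AT4G33560 it was -2.20 and -2.53.

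The effect of prt6-1 differed between seeds and seedlings in air, also by a tested interaction, and in opposite directions for the genes, at -1.92 for AT4G10270 and 0.70 for AT4G33560. The latter was near the threshold (limma adjusted p = 0.0248) and was not called with only the arrays compared (0.70, limma adjusted p = 0.0731). The opposite direction rests on that value. Tissue, growth conditions and experiment cannot be told apart in these interactions. Groups of 2 or 3 arrays were too small for a test of outlying values of a single gene, and the first Col-0 seed array stood apart by its lower correlation with the other seed arrays.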

How the results depend on the processing

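For both genes there were 34 results, counting each gene in each comparison and the tests between the genes. Alternatives gave 656 values, of which 645 kept their direction and their side of the threshold. For part of these the direction could not change. The intensity trend and the replicate block left the estimates as they were, as did leaving out a seedling array of a group not compared. The permutation test in seeds, with a smallest p of 0.1, could not pass the threshold. The 645 is therefore not a measure of robustness. With an intensity trend AT4G10270 was called higher in prt6-1 than in Col-0 under hypoxia (0.31, limma adjusted p = 0.0367). For AT4G33560 the seed minus seedling effect of prt6-1 was no longer called with only the arrays compared (0.70, limma adjusted p = 0.0731), and its small difference between ate1 ate2 and prt6-1 under hypoxia turned to -0.014 after median centring. The causes were not tested. Leaving out some single arrays ended calls of AT4G33560. These were prt6-1 and ate1 ate2 against Col-0 under hypoxia, and the seed minus seedling effect of prt6-1. Over every array left out in turn the values ran from 0.59 to 0.75, from 0.61 to 0.79 and from 0.58 to 0.79. Not every value in these ranges lost its call. The difference of AT4G33560 between the mutants under hypoxia ran from -0.066 (without hypoxic ate1 ate2 replicate 2) to 0.12. The replicate block changed no call of either gene. With it the rise of AT4G10270 in Col-0 was 4.37 (limma adjusted p = 1.27e-12). In seeds the block lowered the number of probe sets called from 934 to 535.

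The background counts moved more. Over all alternatives the 934 calls in seeds ran from 300 (without prt6-1 seed replicate 1) to 3006, and were 1554 without Col-0 seed replicate 1. For hypoxia against air the 478 calls in Col-0 ran from 243 to 557, the 927 in prt6-1 from 406 to 1115 and the 665 in ate1 ate2 from 192 to 792. Against Col-0 in air the 943 in prt6-1 ran from 402 to 1156 and the 843 in ate1 ate2 from 362 to 1055, and under hypoxia the 1180 ran from 392 to 1412 and the 596 from 229 to 995. Between the mutants the 29 in air ran from 12 to 92 and the 37 under hypoxia from 8 to 120. The 38 and 70 calls of the interactions with Col-0 ran from 29 to 58 and from 41 to 133, and the 1 between the mutants from 0 to 9. The comparisons of mutants in air with hypoxic Col-0 (1428 and 1527) ran from 666 to 1740 and from 633 to 1782, and the 1276 of the seed minus seedling effect from 545 to 2039.

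After median centring the share of calls that were higher went from 55.2% to 44.5% for hypoxia in ate1 ate2, from 29.9% to 47.4% in prt6-1 against Col-0 under hypoxia (40.8% with quantiles), from 56.8% to 35.6% between the mutants under hypoxia (43.5% with quantiles), and from 38.6% to 48.9% and 40.4% to 55.7% for prt6-1 and ate1 ate2 in air against hypoxic Col-0. With 2 or 3 arrays a group, small differences between groups could not be resolved.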
